A study of Mus musculus with 12 samples.

Results

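Transcript levels were compared between mouse embryonic bodies at day 7 and undifferentiated embryonic stem (ES) cells at day 0, over all 23332 transcript clusters of the Affymetrix Mouse Exon 1.0 ST array. A transcript cluster is the array's unit for a whole gene, summarised from several probe sets. The comparison uses the 4 gene-level profiles of these 2 stages, out of 6 gene-level and 12 deposited profiles in all. The same series also profiled cardiac bodies at day 14. Their 2 gene-level samples enter the estimate of spread, the choice of 1 cluster per gene and the percentiles of all signals. The study followed ES cells on their way to cardiomyocytes, in a DMEM-based medium with 10% serum. Both stages had 2 samples each, with no genetic change, inhibitor or sorted cell population named in the labels. The labels give neither the ES cell line, the strain, the use of feeder cells nor whether the 2 samples of a stage came from separate cultures. The p-values therefore measure only how far these particular samples spread, and that spread may be technical.

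Embryonic bodies are clumps of cells grown from ES cells, which, once released from conditions that hold them undifferentiated, begin to form derivatives of the 3 germ layers. ES cells depend on a small circuit of transcription factors, on LIF and BMP signals, and on a metabolism suited to fast division. On differentiation, cells exchange their surface receptors, adhesion molecules and matrix, which then carry the signals of the tissues that form. An embryonic body is a mixture, so in these bulk samples fewer cells of a type and less RNA per cell cannot be told apart.

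Of all 23332 clusters, 2481 differed (10.6%), of which 1249 were higher (5.35% of all) and 1232 lower (5.28%) in embryonic bodies. Calls rest on an adjusted p under 0.05 (Benjamini-Hochberg, over all clusters) in a limma fit of all 6 gene-level samples. With 1 cluster for each of 14847 named genes, 2058 were called (13.9%), 1004 higher (6.76%) and 1054 lower (7.10%), and the last 2 shares are the background for every list below. Changes are log2 differences of day 7 minus day 0 ± the standard error of the fit (n = 2 per stage) and levels are log2 signals. A change of 1 or more was seen in 874 genes that rose (5.89%) and 829 that fell (5.58%), and of 4 or more in 37 and 14. All called genes had non-overlapping groups, as had 26.6% of all genes with day 7 above and 36.0% with day 7 below. The genes that rose went from a median level of 6.63 to 8.62, and 47 of them went from under the 25th percentile of all signals (4.86) to over the 50th (6.62). Of those that fell, 17 made that passage downwards. The number of calls depended on each sample: 317, 386, 570 and 581 clusters were higher and 335, 248, 327 and 315 lower without ES cell replicate 1, ES cell replicate 2, embryonic body replicate 1 and embryonic body replicate 2, in that order. In such a fit the remaining sample of a stage is assumed to vary like the other groups. The leave-out counts below follow the same order of samples.

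The stage labels were checked against marker genes. All 10 ES cell markers, among them Pou5f1, Nanog and Zfp42, fell, with a median change of -2.98 and a mean level of 11.02 and 11.03 in the ES cell samples against 8.01 and 7.91 in the embryonic bodies. Markers of epithelium (5 of 7 higher), endothelium (6 of 9), smooth muscle (4 of 7), cardiac cells (4 of 9) and endoderm (4 of 9) rose in part, and none of the 7 primitive streak or 9 neural markers did. Of 10 markers of fibroblasts and mesenchyme, which feeder cells share, 3 rose and 1, Thy1, fell. The embryonic body samples differed in makeup. The mean level of the 9 endothelial markers was 7.52 in replicate 1 and 8.56 in replicate 2, whereas the 8 blood, 9 endoderm, 10 fibroblast and 7 trophoblast markers averaged 7.54, 7.66, 7.35 and 7.27 in replicate 1 and 6.07, 6.78, 6.56 and 5.90 in replicate 2. In the ES cell samples the same 5 lists averaged 5.60 to 6.15. The part of these differences in the results below was not tested. Macrophage markers averaged 5.97 and 5.95 in the ES cell samples and 5.08 and 4.90 in the embryonic bodies, with 3 of 9 lower.

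To look beyond lineage markers, 106 gene lists were drawn up by gene symbol in 9 classes, together 4502 measured genes. Of these genes, 449 rose (9.97%) and 366 fell (8.13%). Calls in both directions were found in 78 lists, rises alone in 16 and falls alone in 11, while the Hox genes had no call. In the plot of list shares, receptor, adhesion and matrix lists extend mainly to the right of the background, and one-carbon metabolism, amino acid metabolism, KLF factors and the meiosis genes mainly to the left. A list drawn up by symbol can hold a gene outside its family, such as Agtrap among the G protein-coupled receptors, and such genes were kept in the counts.

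**Figure D1:**
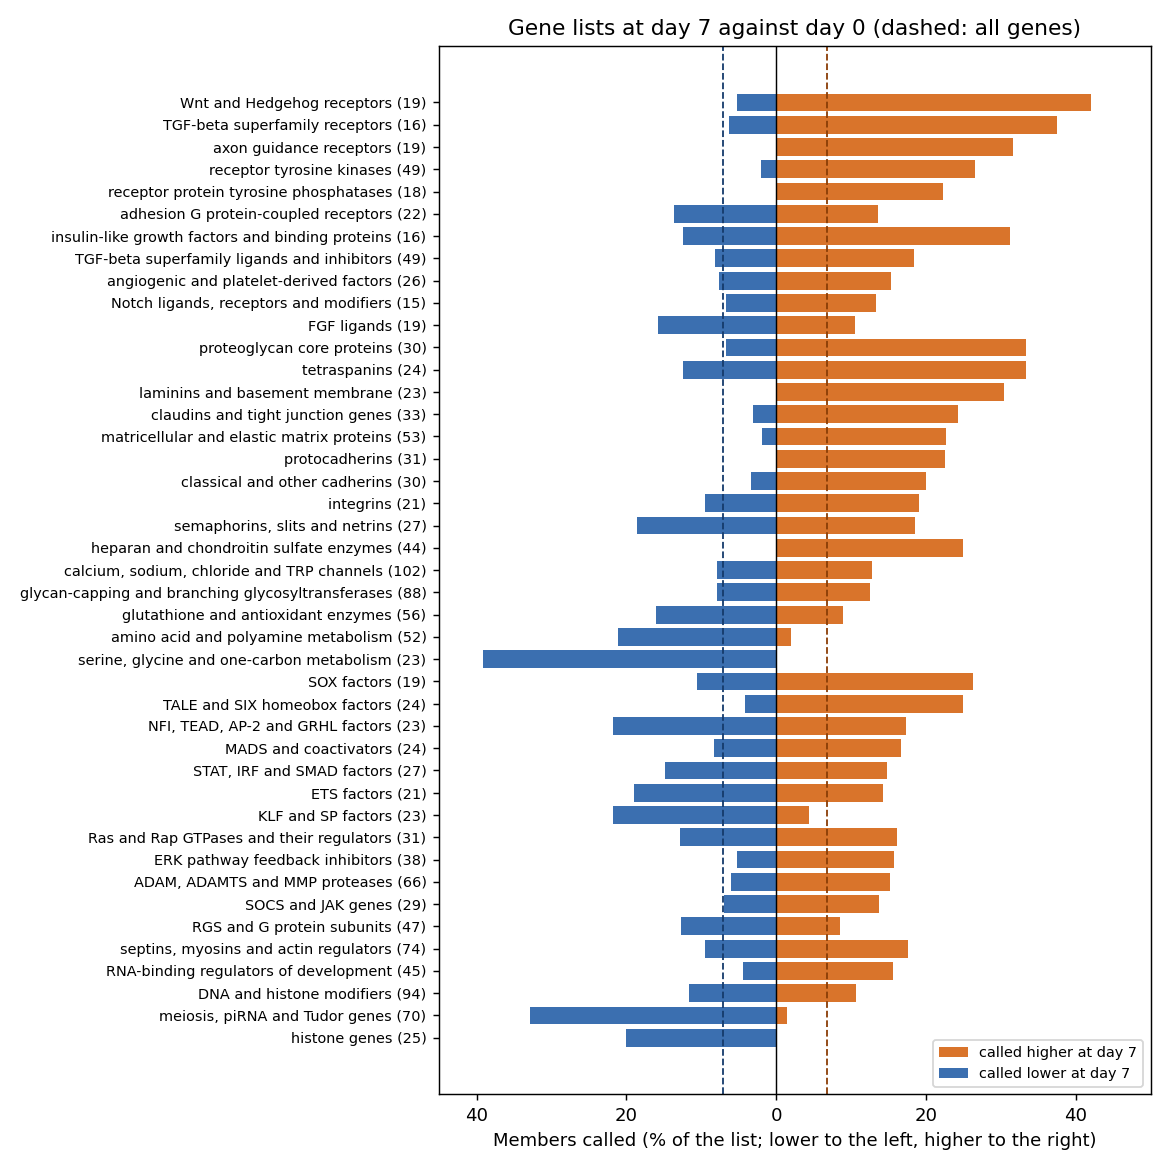
Share of the measured members of each gene list called higher (orange, to the right) or lower (blue, to the left) in embryonic bodies, in % of the list, with the number of measured genes in brackets. The 43 lists shown have 15 or more genes and at least 20% called, and the dashed lines mark the shares over all 14847 genes (6.76% higher and 7.10% lower). The Wnt and Hedgehog receptors reach 42.1% higher and the serine, glycine and one-carbon genes 39.1% lower.

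Receptors were called higher more often than lower. Of 575 measured receptor genes, 69 rose (12%, against 6.76% of all genes) and 28 fell (4.87%, against 7.10%), with a median change of 0.02 against -0.07 over all genes. Without each of the 4 samples in the order above, 21, 21, 49 and 41 rose and 14, 9, 10 and 9 fell, and 19 and 7 were called in all 4 of these fits. By share of rises, the receptor lists were led by the receptors of the Wnt and Hedgehog pathways (42.1%), the TGF-beta superfamily receptors (37.5%), the axon guidance receptors (31.6%) and the receptor tyrosine kinases (26.5%).

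Receptor tyrosine kinases, which pass growth factor signals into the cell, had 13 of 49 members higher and 1 lower. Kdr, the main receptor for vascular endothelial growth factor, measured 5.0 and 5.13 at day 0 and 7.91 and 8.82 at day 7, a change of 3.30 ± 0.32 (adjusted p = 0.00532). Flt1, which binds the same ligands, measured 5.58 and 5.35 at day 0 and 9.10 and 8.35 at day 7, a change of 3.26 ± 0.28 (adjusted p = 0.00424). Both were low in the 2 ES cell samples, and the higher embryonic body sample was replicate 2 for Kdr and replicate 1 for Flt1. Fgfr2 measured 5.81 and 6.55 at day 0 and 9.09 and 8.52 at day 7, a change of 2.63 ± 0.41 (adjusted p = 0.0192). Ror1, a receptor that binds Wnt5a, changed by 2.62 ± 0.35 (adjusted p = 0.0125) and Epha7, an ephrin receptor, by 2.53 ± 0.33 (adjusted p = 0.0121). Pdgfrb, the platelet-derived growth factor receptor of mural and mesenchymal cells, measured 6.43 and 6.51 at day 0 and 9.47 and 8.47 at day 7, a change of 2.50 ± 0.34 (adjusted p = 0.013). The gap between the embryonic body samples was far wider than that between the ES cell samples for Pdgfrb, as for Tek, the angiopoietin receptor (6.19 and 6.57 at day 0 and 8.07 and 9.31 at day 7, a change of 2.31 ± 0.49, adjusted p = 0.0415). Tie1, Met, Insr, Igf1r, Axl and Ddr1 rose by 1.04 to 1.75. The single fall was Epha2, a receptor for ephrin-A ligands, at 9.43 and 9.31 at day 0 and 7.56 and 7.43 at day 7 and a change of -1.88 ± 0.17 (adjusted p = 0.00445). Its 4 samples formed tight pairs, but another cluster of the same gene changed by only -0.39. The receptor tyrosine kinases had a median change of 0.34 with all samples and 2, 2, 8 and 6 higher and 1 lower each time in the leave-out fits. With any 1 of the 4 samples left out, Kdr, Flt1 and Epha2 kept their calls each time, and Ror1, Epha7, Pdgfrb, Tek and Tie1 kept theirs in some fits only. The calls of Fgfr2, Met, Insr, Igf1r, Axl and Ddr1 were lost each time.

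Receptors of the Wnt and Hedgehog pathways had the largest share of rises among the receptor lists, with 8 of 19 higher and 1 lower and a median change of 1.19. Fzd2, a Frizzled receptor for Wnt proteins, measured 6.61 and 7.07 at day 0 and 9.79 and 10.64 at day 7, a change of 3.38 ± 0.37 (adjusted p = 0.00717). Fzd4, the Frizzled that also serves Norrin, measured 6.20 and 6.68 at day 0 and 9.06 and 9.61 at day 7, a change of 2.89 ± 0.30 (adjusted p = 0.006). Fzd5 moved the opposite way, with 10.31 and 10.12 at day 0 and 8.40 and 8.33 at day 7 and a change of -1.85 ± 0.17 (adjusted p = 0.00473). Within the Frizzled family, Fzd5 thus fell while Fzd2, Fzd3, Fzd4 and Fzd6 rose. Lgr5, a receptor for R-spondins, measured 5.31 and 5.29 at day 0 and 8.22 and 7.73 at day 7, a change of 2.67 ± 0.22 (adjusted p = 0.00364). Smo, the transducer of Hedgehog signals, and the Hedgehog coreceptors Cdon and Boc rose by 0.95 to 1.22. These receptors had 3, 3, 6 and 5 higher and 1 lower each time as each sample was left out. When each of the 4 samples was left out in turn, Fzd2, Fzd4, Fzd5 and Lgr5 kept their calls each time, Fzd3 kept its call in some fits only, and Fzd6, Smo, Cdon and Boc lost theirs each time.

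Of 16 receptors of the TGF-beta superfamily, 6 rose and 1 fell, with a median change of 0.82. Tgfbr3, or betaglycan, which presents TGF-beta2, measured 6.37 and 6.18 at day 0 and 9.87 and 9.05 at day 7, a change of 3.19 ± 0.32 (adjusted p = 0.00561). Bmpr2, the type II receptor for bone morphogenetic proteins, measured 8.54 and 8.88 at day 0 and 10.67 and 10.57 at day 7, a change of 1.91 ± 0.20 (adjusted p = 0.00679). The 2 embryonic body samples lay very close together for Bmpr2 and further apart for Tgfbr3. Tgfbr1, Tgfbr2, Bmpr1a and the pseudoreceptor Bambi rose by 0.89 to 1.86. Tdgf1, the coreceptor of Nodal and an ES cell marker, went the other way (12.87 and 12.94 at day 0 and 9.68 and 10.48 at day 7, a change of -2.82 ± 0.29, adjusted p = 0.00632). The superfamily's receptors had 2, 2, 4 and 4 higher and 1 lower each time without each sample in turn. In the 4 fits that each left out 1 sample, Tgfbr3, Bmpr2 and Tdgf1 kept their calls each time, Tgfbr1, Tgfbr2 and Bambi kept theirs in some fits only, and Bmpr1a lost its call each time.

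Receptors for axon guidance cues, which also steer vessels and migrating cells, had 6 of 19 higher and none lower. Nrp1, a coreceptor for class 3 semaphorins and vascular endothelial growth factor, had the largest change of any receptor measured, from 5.09 and 4.88 in the ES cell samples to 11.19 and 9.99 in the embryonic bodies (5.60 ± 0.40, adjusted p = 0.00294, or 48.6-fold). Plxnd1, a semaphorin receptor, measured 5.98 and 6.0 at day 0 and 8.49 and 9.35 at day 7, a change of 2.93 ± 0.30 (adjusted p = 0.00616). In both genes the ES cell samples agreed closely, and the embryonic bodies differed from each other by more than the ES cell samples did. Robo2, a receptor for Slit proteins, measured 4.71 and 4.63 at day 0 and 8.45 and 7.57 at day 7, a change of 3.34 ± 0.32 (adjusted p = 0.00513). The netrin receptors Unc5c and Unc5b changed by 3.46 ± 0.60 (adjusted p = 0.0253) and 2.62 ± 0.42 (adjusted p = 0.0206), and Unc5c was far higher in embryonic body replicate 1 (9.73 and 7.83). The guidance receptors had a median change of 0.72 with all samples and 3, 3, 5 and 6 higher with each sample left out. Leaving out each of the 4 samples in turn, Nrp1, Plxnd1 and Robo2 kept their calls each time, and Unc5c and Unc5b kept theirs in some fits only.

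Among 114 G protein-coupled receptors for lipids, peptides and amines, 11 rose and 4 fell, shares of 9.65% and 3.51%. Calcrl, which forms the adrenomedullin receptor together with Ramp2, was at 3.67 and 3.54 in the ES cell samples and at 6.89 and 8.87 in the embryonic bodies, a change of 4.28 ± 0.67 (adjusted p = 0.0192). Ramp2 changed by 2.47 ± 0.52 (adjusted p = 0.0403). Both genes of this receptor were higher in embryonic body replicate 2, the sample with the higher endothelial markers. Lpar6, a receptor for lysophosphatidic acid, measured 7.45 and 8.13 at day 0 and 11.01 and 11.36 at day 7, a change of 3.40 ± 0.33 (adjusted p = 0.00532). Aplnr, the apelin receptor, measured 5.51 and 5.12 at day 0 and 8.62 and 8.04 at day 7, a change of 3.02 ± 0.30 (adjusted p = 0.0058). Of these, Aplnr was higher in embryonic body replicate 1, and the Lpar6 samples at day 7 were closer than those at day 0. S1pr1 and S1pr3, receptors for sphingosine 1-phosphate, F2r, a thrombin receptor, and Ednrb, an endothelin receptor, rose by 1.37 to 2.21. Glp1r, the receptor for glucagon-like peptide 1, fell from 8.78 and 9.36 to 6.37 and 6.40, a change of -2.69 ± 0.31 (adjusted p = 0.00802). The melanocortin receptor Mc5r and the muscarinic receptor Chrm4 fell as well, by 1.87 and 1.24. Among 61 orphan receptors, 3 were higher (4.92%) and 2 lower (3.28%), both shares under the background. Of these, Gprc5c rose by 3.77, while Gpr83 and the proton-sensing Gpr4 fell by 2.99 and 2.50. The receptors for lipids, peptides and amines had a median change of -0.016 with all samples and 3, 4, 6 and 4 higher and 3, 1, 2 and 2 lower in the leave-out fits. Over the 4 leave-out fits, Lpar6, Aplnr, Ednrb, Glp1r and Gprc5c kept their calls each time, and Calcrl, Ramp2, S1pr1, F2r, Mc5r, Gpr83 and Gpr4 kept theirs in some fits only. The calls of S1pr3 and Chrm4 were lost each time.

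The remaining receptor classes changed in fewer members. Ghr, the growth hormone receptor, measured 4.21 and 4.08 at day 0 and 8.47 and 7.70 at day 7, a change of 3.94 ± 0.29 (adjusted p = 0.00298). It was the largest rise of 39 cytokine receptors, of which 3 rose (7.69%, against 6.76% of all genes) and 2 fell (5.13%, against 7.10%). Il10rb and Ifngr2, subunits of the interleukin 10 and interferon-gamma receptors, rose by 2.17 and 1.75. Gria3, a subunit of AMPA-type glutamate receptors, measured 4.19 and 4.29 at day 0 and 8.57 and 9.12 at day 7, a change of 4.60 ± 0.23 (adjusted p = 0.00265). Its stages did not overlap, as in all called genes. Of 37 nuclear receptors, which are transcription factors gated by lipophilic ligands, 5 fell and 2 rose. The falls were led by Nr0b1 (12.18 and 12.13 at day 0 and 7.65 and 8.31 at day 7, a change of -4.17 ± 0.25, adjusted p = 0.00265), Esrrb (10.59 and 10.38 at day 0 and 6.41 and 6.43 at day 7, a change of -4.06 ± 0.19, adjusted p = 0.00265) and Nr5a2 (-2.62 ± 0.23, adjusted p = 0.00424), all 3 known as parts of the ES cell network, followed by Rarg and Nr1d2. Nr2f2 and Rora were the nuclear receptors that rose, by 1.71 and 1.74. Of 18 receptor-type protein tyrosine phosphatases, Ptprm, Ptprd, Ptpre and Ptpra rose by 1.22 to 2.83, and none fell. Of 53 innate immune sensors 4 fell (7.55%, near the background of 7.10%), among them Ddx58, known as RIG-I, and Sting1, by 2.11 and 1.61. The cytokine receptors had a median change of 0.023 with all samples and 2 higher each time and none lower, and the nuclear receptors had a median change of -0.048 with all samples and 1, 0, 1 and 1 higher and 3, 3, 4 and 3 lower as each sample was left out. The receptor-type phosphatases had a median change of 0.33 with all samples and 0, 1, 3 and 2 higher, and the innate immune sensors had a median change of -0.10 with all samples and 0, 0, 2 and 0 higher and 2, 0, 0 and 1 lower with each sample left out. With any 1 of the 4 samples left out, Ghr, Il10rb, Gria3, Nr0b1, Esrrb and Nr5a2 kept their calls each time, and Rarg, Nr2f2, Rora, Ptprm, Ptprd, Ptpre, Ddx58 and Sting1 kept theirs in some fits only. The calls of Ifngr2, Nr1d2 and Ptpra were lost each time.

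**Figure D2:**
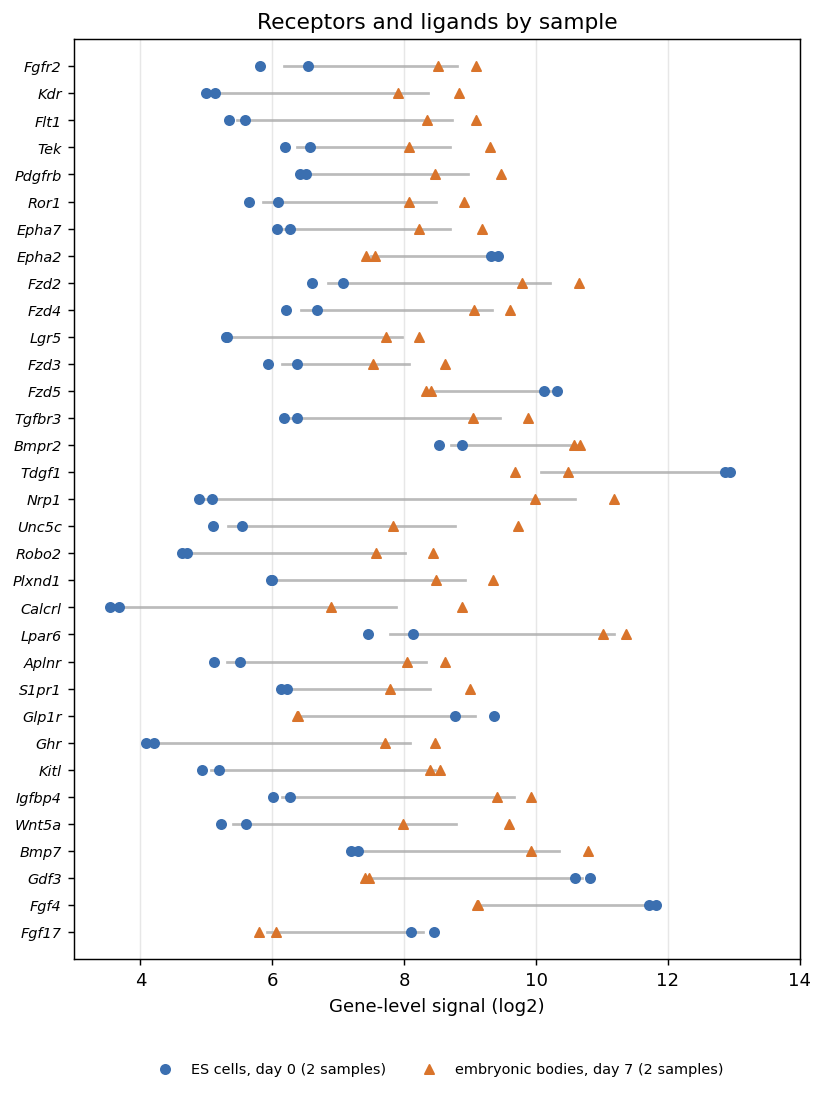
Gene-level log2 signal of receptors and ligands in the 2 ES cell samples (blue circles) and the 2 embryonic body samples (orange triangles), with a grey line between the stage means; all genes shown were called. Nrp1 moves from 5.09 and 4.88 to 11.19 and 9.99, while Fzd5, Epha2, Tdgf1 and Glp1r are among the receptors with both embryonic body samples on the left.

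Of 236 ligand genes, 25 rose (10.6%) and 13 fell (5.51%), without a test against the receptors. By sample left out, 9, 8, 20 and 15 rose and 7, 6, 7 and 7 fell. Among the insulin-like growth factors and their binding proteins, 5 of 16 rose and 2 fell. Igfbp5, a binding protein, measured 5.03 and 5.09 at day 0 and 10.44 and 11.83 at day 7, a change of 6.08 ± 0.53 (adjusted p = 0.00426), and Igf2, a fetal growth factor, measured 6.72 and 6.96 at day 0 and 12.75 and 12.58 at day 7, a change of 5.82 ± 0.18 (adjusted p = 0.00265). These were among the largest changes of any gene, with little spread between the ES cell samples. Igfbp4 measured 6.28 and 6.01 at day 0 and 9.92 and 9.40 at day 7, a change of 3.52 ± 0.25 (adjusted p = 0.00294), whereas Igfbp7 changed by -1.77 ± 0.22 (adjusted p = 0.0106). Igf2r, which clears Igf2, rose by 2.42, and Airn, the antisense RNA of the Igf2r locus, rose by 5.74 in the cluster with the higher level and by 2.46 in another. The files do not state whether signals of overlapping genes were separated by strand. The insulin-like growth factor list had a median change of 0.11 with all samples and 3, 3, 5 and 4 higher and 0, 0, 0 and 1 lower without each sample in turn. When each of the 4 samples was left out in turn, Igfbp5, Igf2, Igfbp4 and Airn kept their calls each time, and Igfbp7 and Igf2r kept theirs in some fits only.

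Within the TGF-beta superfamily, 9 of 49 ligands and inhibitors rose and 4 fell, and the directions differed between subfamilies. Tgfb2 measured 5.18 and 5.18 at day 0 and 10.56 and 9.49 at day 7, a change of 4.85 ± 0.40 (adjusted p = 0.00387), and the bone morphogenetic protein Bmp5 measured 4.83 and 4.50 at day 0 and 9.55 and 9.22 at day 7, a change of 4.72 ± 0.39 (adjusted p = 0.00376). Bmp7 changed by 3.11 ± 0.30 (adjusted p = 0.0054) and Bmp2 by 1.87 ± 0.35 (adjusted p = 0.0298). All 4 were higher in both embryonic body samples, as were all genes called higher. Gdf3 measured 10.59 and 10.82 at day 0 and 7.47 and 7.41 at day 7, a change of -3.27 ± 0.19 (adjusted p = 0.00265), and Nodal, which signals through Tdgf1, measured 9.20 and 9.28 at day 0 and 7.59 and 7.56 at day 7, a change of -1.67 ± 0.17 (adjusted p = 0.00571). Lefty1, the secreted inhibitor of Nodal, fell by 1.57. The Nodal ligand, its coreceptor and its inhibitor were thus all lower at day 7. Bmp4 did not pass the test (change -1.21, adjusted p = 0.331). These ligands and inhibitors had a median change of 0.089 with all samples and 4, 4, 6 and 6 higher and 3, 3, 4 and 3 lower with each sample left out. In the 4 fits that each left out 1 sample, Tgfb2, Bmp5, Bmp7, Gdf3, Nodal and Tdgf1 kept their calls each time, Bmp2 kept its call in some fits only, and Lefty1 lost its call each time.

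Of 19 fibroblast growth factors, Fgf4 (11.83 and 11.71 at day 0 and 9.11 and 9.11 at day 7, a change of -2.66 ± 0.17, adjusted p = 0.00265), Fgf17 (-2.35 ± 0.23, adjusted p = 0.00557) and Fgf18 (-2.02 ± 0.39, adjusted p = 0.0336) fell. Fgf4 is the main such factor of ES cells. Fgf5, a gene of the primed epiblast, and Fgf10 rose by 1.62 and 1.81. Kitl, the ligand of Kit, measured 4.94 and 5.19 at day 0 and 8.39 and 8.55 at day 7, a change of 3.40 ± 0.19 (adjusted p = 0.00265), with the 2 samples of each stage close together. Csf1, Angpt1 and Angpt2 rose by 2.05, 1.49 and 1.16, and Angptl4 fell by 2.25. Wnt5a was the only one of 23 Wnt ligands and R-spondins called, at 5.23 and 5.60 at day 0 and 9.60 and 7.98 at day 7 and a change of 3.38 ± 0.53 (adjusted p = 0.0192). It was much higher in embryonic body replicate 1. Chemokines and interleukins were mostly not called: Cxcl12 rose by 1.68 and Il17b fell by 1.19 among 68 measured. The fibroblast growth factors had a median change of 0.16 with all samples and 0, 0, 2 and 0 higher and 3, 2, 2 and 2 lower, and the Wnt ligands and R-spondins had a median change of -0.075 with all samples and 0, 0, 1 and 1 higher in the leave-out fits. Leaving out each of the 4 samples in turn, Fgf4, Fgf17, Kitl and Angptl4 kept their calls each time, and Fgf18, Fgf5, Fgf10, Csf1, Wnt5a and Cxcl12 kept theirs in some fits only. The calls of Angpt1, Angpt2 and Il17b were lost each time.

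Known ligand and receptor pairs were set side by side, 44 of which had both partners measured. Both partners rose in 6 pairs, both fell in 1, and in 13 neither was called. The 6 were Cxcl12 with Cxcr4, Igf2 with Igf1r, Igf2 with Igf2r, Angpt1 with Tek, Tgfb2 with Tgfbr3 and Postn with the integrin subunit Itgav, with receptor changes of 1.47 to 3.19. Nodal and Tdgf1 were the pair that fell. In 12 pairs only the receptor was called, as higher, among them Kdr with Vegfa (change of the ligand 0.40, adjusted p = 0.462), Aplnr with Apln (0.48, 0.259) and Calcrl with Adm (-0.16, 0.803). Some uncalled ligands had larger changes: Sema3a, paired with Nrp1 (2.10, 0.0509), Gas6 with Axl (1.37, 0.392) and Bmp4 with Bmpr1a (-1.21, 0.331). In 8 pairs only the ligand was called, as higher, among them Kitl with Kit (change of the receptor -0.035, adjusted p = 0.974), Csf1 with Csf1r (-0.15, 0.726) and Cxcl12 with Ackr3 (1.42, 0.15). Partners moved in opposite directions in 3 pairs: Fgf4 fell while Fgfr2 rose, Ntn1 fell while Unc5b rose, and Efna1 rose while Epha2 fell. Of the 6 pairs, only Tgfb2 with Tgfbr3 had both partners called in all 4 fits that left out a sample, while Igf1r, Angpt1 and Itgav lost their calls in each of these fits. Nodal and Tdgf1 kept both calls each time. A pair can be measured in different cells of the mixture, which these values do not resolve.

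Adhesion and matrix genes had 79 of 447 members higher (17.7%) and 26 lower (5.82%). In the leave-out fits, 26, 27, 50 and 51 rose and 9, 8, 11 and 10 fell. Cadherins join cells of one kind, and 6 of 30 rose while 1 fell. Cdh11, the cadherin of mesenchyme, measured 4.58 and 5.03 at day 0 and 11.33 and 10.85 at day 7, a change of 6.28 ± 0.48 (adjusted p = 0.00325), the largest of any adhesion gene. Cdh2, or N-cadherin, measured 6.04 and 6.89 at day 0 and 10.19 and 10.14 at day 7, a change of 3.70 ± 0.31 (adjusted p = 0.00387). Each stage's 2 samples were close together in both genes relative to the difference. Cdh5, the cadherin of endothelium, measured 5.07 and 5.33 at day 0 and 9.41 and 10.26 at day 7, a change of 4.63 ± 0.31 (adjusted p = 0.00271). Cdh6 changed by 3.33 ± 0.70 (adjusted p = 0.041), with a wide gap between the embryonic body samples (9.72 and 7.50). E-cadherin, Cdh1, did not pass the test, at 11.54 and 11.74 at day 0 and 11.65 and 12.04 at day 7 and a change of 0.21 ± 0.21 (adjusted p = 0.611). Of 31 protocadherins 7 rose and none fell, with Pcdh7 at 4.71 and 4.30 at day 0 and 9.74 and 9.69 at day 7 (a change of 5.21 ± 0.20, adjusted p = 0.00265) and Pcdh18 at a change of 3.60 ± 0.22 (adjusted p = 0.00265). The cadherins had 3, 3, 5 and 6 higher and 1 lower each time, and the protocadherins had a median change of 0.41 with all samples and 3, 2, 6 and 2 higher as each sample was left out. Over the 4 leave-out fits, Cdh11, Cdh2, Cdh5, Pcdh7 and Pcdh18 kept their calls each time, and Cdh6 kept its call in some fits only.

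Tetraspanins, small membrane proteins that organise receptors in patches, had 8 of 24 higher and 3 lower. Tspan18 measured 5.55 and 4.92 at day 0 and 9.81 and 9.69 at day 7, a change of 4.51 ± 0.29 (adjusted p = 0.0027), and Tspan12, a partner of Fzd4 in Norrin signalling, measured 4.66 and 4.54 at day 0 and 8.29 and 9.08 at day 7, a change of 4.08 ± 0.29 (adjusted p = 0.00298). Cd9, a tetraspanin of the ES cell surface, changed by -1.40 ± 0.22 (adjusted p = 0.0199) and Cd37 by -2.59 ± 0.21 (adjusted p = 0.00355). Of the 7 ephrins, the membrane-bound ligands of Eph receptors, 4 rose and none fell: Efna5 measured 5.49 and 5.95 at day 0 and 8.85 and 9.13 at day 7, a change of 3.27 ± 0.27 (adjusted p = 0.00383), and Efnb2 5.99 and 6.77 at day 0 and 8.36 and 10.01 at day 7, a change of 2.80 ± 0.60 (adjusted p = 0.0428). Efnb2 was higher in embryonic body replicate 2 by more than its whole spread at day 0. The semaphorins, slits and netrins split evenly, with 5 of 27 higher and 5 lower. The transmembrane Sema6a (3.77 ± 0.21, adjusted p = 0.00265), Sema6d (3.63 ± 0.44, adjusted p = 0.00937) and Sema5a (3.09 ± 0.20, adjusted p = 0.00271) and the secreted Slit2 (3.07 ± 0.40, adjusted p = 0.0119) rose. Sema4a (-1.91 ± 0.25, adjusted p = 0.0122), Sema4b (-1.51 ± 0.27, adjusted p = 0.0272), Sema4d and the netrin Ntn1 (-2.29 ± 0.30, adjusted p = 0.0119) fell. All 3 class 4 semaphorins called were falls and both class 6 semaphorins called were rises. Class 5 went both ways, with Sema5a higher and Sema5b lower. The tetraspanins had a median change of 0.37 with all samples and 2, 2, 2 and 4 higher and 1, 1, 2 and 1 lower, and the ephrins had a median change of 1.42 with all samples and 1, 1, 3 and 2 higher without each sample in turn. The semaphorins, slits and netrins had a median change of 0.27 with all samples and 2, 2, 4 and 4 higher and 1, 0, 2 and 1 lower in the leave-out fits. With any 1 of the 4 samples left out, Tspan18, Tspan12, Cd37, Efna5, Sema6a and Sema5a kept their calls each time, and Efnb2, Sema6d, Slit2, Sema4a and Ntn1 kept theirs in some fits only. The calls of Cd9, Sema4b and Sema4d were lost each time.

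Of 33 claudins and tight junction genes, 8 rose and 1 fell. Cldn6 and Cldn7, claudins of early epithelia, rose by 2.67 and 1.73, together with Ocln, Marveld2, Patj, Cgnl1, Jam3 and F11r. The fall was Jam2, which measured 11.35 and 11.52 at day 0 and 7.16 and 7.80 at day 7, a change of -3.95 ± 0.33 (adjusted p = 0.00393) and the largest fall of any adhesion gene. Marveld2, or tricellulin, measured 4.93 and 5.0 at day 0 and 7.17 and 6.94 at day 7, a change of 2.09 ± 0.18 (adjusted p = 0.00419). In the junctional adhesion molecule family Jam2 therefore moved against Jam3 (1.34 ± 0.23, adjusted p = 0.0244) and F11r (0.87 ± 0.19, adjusted p = 0.0432). Icam1, a leukocyte-binding protein of the immunoglobulin superfamily, measured 9.52 and 9.57 at day 0 and 7.24 and 6.89 at day 7, a change of -2.48 ± 0.23 (adjusted p = 0.00459). Pecam1, known from endothelium and also from ES cells, fell by 1.59 (adjusted p = 0.0368) although 6 other endothelial markers rose. The galectins Lgals3 (9.24 and 9.29 at day 0 and 5.91 and 6.61 at day 7, a change of -3.0 ± 0.26, adjusted p = 0.00427) and Lgals9 (-2.81 ± 0.30, adjusted p = 0.00716) fell. Of 21 integrins 4 rose and 2 fell: Itga8, Itgav, Itgb1 and Itgb5 rose by 1.19 to 2.25, and Itgal and Itgb7, subunits of leukocyte integrins, fell by 0.91 and 1.06. The claudins and tight junction genes had a median change of 0.55 with all samples and 3, 3, 4 and 4 higher and 1 lower each time, and the integrins had a median change of -0.056 with all samples and none higher and none lower with each sample left out. When each of the 4 samples was left out in turn, Cldn6, Marveld2, Patj, Jam2, Icam1, Lgals3 and Lgals9 kept their calls each time, and Cldn7 and Jam3 kept theirs in some fits only. The calls of Ocln, Cgnl1, F11r, Pecam1, Itga8, Itgav, Itgb1, Itgb5, Itgal and Itgb7 were lost each time.

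**Figure D3:**
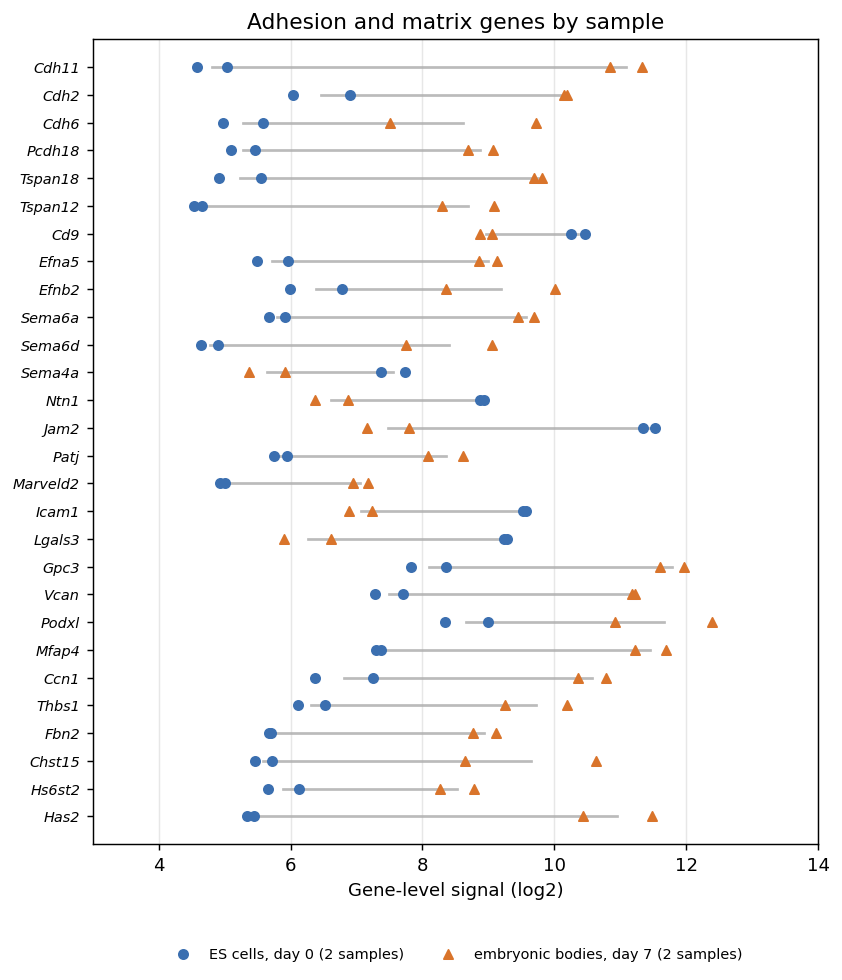
Gene-level log2 signal of adhesion, guidance and matrix genes in the 2 ES cell samples (blue circles) and the 2 embryonic body samples (orange triangles), with a grey line between the stage means; all genes shown were called. Cdh11 and Has2 move from the left part of the axis to levels over 10, and Jam2, Icam1, Lgals3, Ntn1, Sema4a and Cd9 run the other way.

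Of 30 proteoglycan core proteins, 10 rose and 2 fell. Vcan, a large chondroitin sulfate proteoglycan, measured 7.27 and 7.70 at day 0 and 11.18 and 11.22 at day 7, a change of 3.71 ± 0.23 (adjusted p = 0.00265), and Gpc3, a heparan sulfate proteoglycan of the cell surface, measured 8.36 and 7.83 at day 0 and 11.96 and 11.60 at day 7, a change of 3.69 ± 0.25 (adjusted p = 0.00274). Their 4 values at day 7 lay between 11.18 and 11.96. The syndecans Sdc1, Sdc2 and Sdc3 rose by 0.85 to 2.47, and the glypicans Gpc1 and Gpc6 by 1.74 and 3.37. The enzymes that build and sulfate the side chains of these proteins were called in the same direction, with 11 of 44 higher (25%) and none lower. Chst15, which adds a sulfate to chondroitin, measured 5.46 and 5.71 at day 0 and 10.64 and 8.65 at day 7, a change of 4.06 ± 0.65 (adjusted p = 0.0201), and Hs6st2, a heparan sulfate 6-O-sulfotransferase, measured 5.65 and 6.12 at day 0 and 8.27 and 8.78 at day 7, a change of 2.64 ± 0.27 (adjusted p = 0.00585). Chst15 stood apart in embryonic body replicate 1, while the Hs6st2 samples were even. Hs3st1, Hs3st3b1, Ndst2, Ust, Chst2, Chst14, Papss1, which makes the sulfate donor, Chpf2 and Sulf1, which removes sulfates, made up the rest, with rises of 0.84 to 1.78. Hyaluronan, the matrix polymer without sulfate, is made by Has2, which measured 5.45 and 5.34 at day 0 and 10.43 and 11.48 at day 7, a change of 5.56 ± 0.39 (adjusted p = 0.00294). Cd44, the hyaluronan receptor, measured 4.75 and 4.68 at day 0 and 7.95 and 7.55 at day 7, a change of 3.04 ± 0.23 (adjusted p = 0.00316). The core proteins had a median change of 0.26 with all samples and 5, 6, 7 and 10 higher and none lower, and the enzymes of their side chains had a median change of 0.36 with all samples and 2, 1, 5 and 6 higher in the leave-out fits. In the 4 fits that each left out 1 sample, Vcan, Gpc3, Sdc3, Gpc6, Hs6st2, Has2 and Cd44 kept their calls each time, and Sdc2, Gpc1, Chst15, Hs3st3b1, Chst14 and Sulf1 kept theirs in some fits only. The calls of Sdc1, Hs3st1, Ndst2, Ust, Chst2, Papss1 and Chpf2 were lost each time.

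Matricellular and elastic matrix proteins had 12 of 53 members higher and 1 lower, and laminins and other basement membrane genes 7 of 23 higher and none lower. Mfap4, a protein of elastic fibres, measured 7.29 and 7.37 at day 0 and 11.23 and 11.69 at day 7, a change of 4.13 ± 0.21 (adjusted p = 0.00265), and Fbn2, a fetal fibrillin, measured 5.68 and 5.71 at day 0 and 8.76 and 9.11 at day 7, a change of 3.25 ± 0.20 (adjusted p = 0.00265). Ccn1 and Thbs1, secreted modulators of cell adhesion, changed by 3.76 ± 0.39 (adjusted p = 0.00627) and 3.40 ± 0.42 (adjusted p = 0.00999). Postn changed by 4.47 ± 0.75 (adjusted p = 0.0225), with 9.90 and 7.46 in the embryonic bodies. Postn was thus far apart between the embryonic body samples, unlike Mfap4 and Fbn2. In the basement membrane, Frem1 (3.56 ± 0.37, adjusted p = 0.00646) and Fras1 (2.39 ± 0.43, adjusted p = 0.0272), which act in one complex at epithelia, rose with Npnt, Col4a1, Col4a2, Lamb1 and Egflam. The fibrillar collagens Col1a1 (change 0.62, adjusted p = 0.468) and Col3a1 (0.91, 0.256) were not called. Embryonic body replicate 1 was higher than replicate 2 by 1.38 for Col1a1 and 1.30 for Col3a1. Of 39 collagens only Col4a1, Col4a2 and Col12a1 were called. The matricellular and elastic proteins had a median change of 0.63 with all samples and 4, 4, 9 and 9 higher and none lower, and the basement membrane genes had a median change of 0.50 with all samples and 1, 1, 3 and 6 higher as each sample was left out. The collagens had a median change of 0.083 with all samples and 0, 0, 2 and 1 higher with each sample left out. Leaving out each of the 4 samples in turn, Mfap4, Fbn2, Ccn1 and Frem1 kept their calls each time, and Thbs1, Postn, Fras1, Npnt, Col4a1, Lamb1, Egflam and Col12a1 kept theirs in some fits only. Col4a2 lost its call each time.

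Metabolic enzymes and transporters were the largest class and were called lower more often than higher, with 83 of 1274 higher (6.51%) and 133 lower (10.4%, against 7.10% of all genes). By sample left out, 22, 18, 42 and 46 rose and 37, 26, 43 and 34 fell. Serine, glycine and one-carbon metabolism, which supplies carbon units for nucleotides and methylation, had 9 of 23 members lower (39.1%) and none higher, with a median change of -0.72 against -0.07 over all genes. Shmt2, the mitochondrial enzyme that turns serine to glycine, measured 11.04 and 11.09 at day 0 and 9.56 and 9.36 at day 7, a change of -1.61 ± 0.18 (adjusted p = 0.00732). Mthfd2, the next mitochondrial folate enzyme, measured 9.83 and 9.37 at day 0 and 8.02 and 7.59 at day 7, a change of -1.80 ± 0.28 (adjusted p = 0.0186), and Psat1, of serine synthesis, 10.45 and 10.25 at day 0 and 8.96 and 8.32 at day 7, a change of -1.71 ± 0.36 (adjusted p = 0.0411). The 2 stages did not overlap in these 3 genes, as in all called genes. Cbs, which draws homocysteine into cysteine synthesis, changed by -1.55 ± 0.19 (adjusted p = 0.00972), and Shmt1, Mthfd1, Psph, Ahcy and Fpgs by -1.18 to -1.06. Tyms, the thymidylate synthase, did not pass the test (change -0.20, adjusted p = 0.771), nor did Gldc, Gcat and Mat2b, which had changes of -0.26, -0.65 and -0.55. The one-carbon list had 1, 0, 3 and 1 lower without each sample in turn. Over the 4 leave-out fits, Shmt2 and Cbs kept their calls in some fits only, and Mthfd2, Psat1, Shmt1, Mthfd1, Psph, Ahcy and Fpgs lost theirs each time.

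Nucleotide and amino acid metabolism also had more falls than rises. Of 61 purine and pyrimidine genes 12 fell and none rose, and of 52 amino acid and polyamine genes 11 fell and 1, Gamt, rose. Bcat1, the cytosolic transaminase of branched-chain amino acids, measured 11.69 and 11.71 at day 0 and 9.10 and 8.71 at day 7, a change of -2.79 ± 0.21 (adjusted p = 0.00321). Upp1, a uridine phosphorylase, measured 11.00 and 10.58 at day 0 and 7.10 and 8.90 at day 7, a change of -2.79 ± 0.57 (adjusted p = 0.0388), with the embryonic body samples far apart. Prps1, which makes the ribose donor of nucleotides, measured 11.53 and 11.00 at day 0 and 9.22 and 9.68 at day 7, a change of -1.82 ± 0.29 (adjusted p = 0.02). Ppat and Gart of purine synthesis, Umps and Dhodh of pyrimidine synthesis and the salvage enzyme Hprt changed by -1.56 to -0.78. Hal, the histidine ammonia-lyase, changed by -2.81 ± 0.28 (adjusted p = 0.0057), and Asns, the asparagine synthetase, fell by 1.17. The purine and pyrimidine genes had a median change of -0.077 with all samples and 2, 1, 3 and 3 lower, and the amino acid and polyamine genes had a median change of -0.19 with all samples and 0, 0, 0 and 2 higher and 2 lower each time with each sample left out. With any 1 of the 4 samples left out, Bcat1 and Hal kept their calls each time, and Upp1 kept its call in some fits only. The calls of Gamt, Prps1, Ppat, Gart, Umps, Dhodh, Hprt and Asns were lost each time.

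The carriers that bring amino acids and nucleosides into cells also had more falls, with 9 of 62 lower (14.5%) and 2 higher. Slc7a3, a carrier of cationic amino acids, measured 10.95 and 11.15 at day 0 and 8.15 and 8.73 at day 7, a change of -2.61 ± 0.24 (adjusted p = 0.00482), and Slc1a5, a glutamine carrier, measured 9.40 and 9.22 at day 0 and 7.10 and 7.07 at day 7, a change of -2.22 ± 0.23 (adjusted p = 0.00605). Slc7a1 (-2.06 ± 0.23, adjusted p = 0.00727) and Slc7a5, the large neutral amino acid carrier (11.99 and 11.86 at day 0 and 10.74 and 9.95 at day 7, a change of -1.58 ± 0.29, adjusted p = 0.0291), fell as well. The samples of each stage lay close together for Slc1a5 and Slc7a1 and further apart at day 7 for Slc7a5. The nucleoside carriers Slc28a1, Slc29a1 and Slc29a3 fell as well, with changes of -2.12 to -1.46. Among 238 other solute carriers 27 fell (11.3%, against 7.10% of all genes) and 15 rose (6.30%, near the background of 6.76%). Slc39a8, a zinc and manganese importer, measured 5.17 and 5.32 at day 0 and 10.39 and 9.05 at day 7, a change of 4.47 ± 0.45 (adjusted p = 0.00571), Slc25a24, a mitochondrial ATP-Mg carrier, changed by 3.87 ± 0.22 (adjusted p = 0.00265), and Slc40a1, the iron exporter ferroportin, by 2.90 ± 0.22 (adjusted p = 0.00325). Slc27a2, a fatty acid carrier, Slc15a1, a peptide carrier, Slc52a3, a riboflavin carrier, and Slc47a1, an exporter of organic cations, fell, with changes of -3.22 to -2.88. Of 42 ABC transporters 6 fell and none rose, led by the lipid exporter Abca1 (8.26 and 8.89 at day 0 and 6.41 and 6.07 at day 7, a change of -2.34 ± 0.28, adjusted p = 0.00959). These carriers had a median change of -0.16 with all samples and 1, 1, 0 and 1 higher and 7, 5, 6 and 6 lower, and the other solute carriers had a median change of -0.02 with all samples and 5, 4, 6 and 11 higher and 9, 7, 10 and 6 lower in the leave-out fits. The ABC transporters had a median change of -0.10 with all samples and 1, 1, 1 and 0 lower without each sample in turn. When each of the 4 samples was left out in turn, Slc7a3, Slc1a5, Slc7a1, Slc28a1, Slc29a1, Slc39a8, Slc25a24, Slc40a1, Slc27a2, Slc15a1, Slc52a3 and Slc47a1 kept their calls each time, and Slc7a5, Slc29a3 and Abca1 kept theirs in some fits only.

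Enzymes against oxidants and of lipids changed in both directions. In the glutathione and antioxidant list 9 of 56 fell and 5 rose. Gsta3 (7.78 and 8.56 at day 0 and 4.33 and 4.50 at day 7, a change of -3.75 ± 0.30, adjusted p = 0.00354) and Gstp3 (-3.14 ± 0.38, adjusted p = 0.00981), glutathione transferases, fell most, with Nqo1 (-2.15 ± 0.31, adjusted p = 0.0147) and the mitochondrial Sod2 (-1.63 ± 0.16, adjusted p = 0.00567). Gpx8, a peroxidase of the endoplasmic reticulum, measured 8.26 and 8.12 at day 0 and 10.61 and 10.61 at day 7, a change of 2.42 ± 0.24 (adjusted p = 0.00571). Not all glutathione transferases fell: in the fit of all 6 samples Gstm5 and Mgst1 were called higher, while Gstt1 was called lower. The secreted phospholipases A2 Pla2g1b (10.76 and 11.36 at day 0 and 7.57 and 6.84 at day 7, a change of -3.86 ± 0.33, adjusted p = 0.00396), Pla2g5 (8.82 and 8.55 at day 0 and 5.94 and 5.60 at day 7, a change of -2.92 ± 0.22, adjusted p = 0.00316) and Pla2g10 (-2.48 ± 0.23, adjusted p = 0.00456) fell, within a phospholipid list of 67 genes with 9 lower and 4 higher. Hsd11b2, which inactivates glucocorticoids, measured 6.32 and 7.26 at day 0 and 12.57 and 11.76 at day 7, a change of 5.37 ± 0.40 (adjusted p = 0.00316). Cyp26a1, an enzyme that degrades retinoic acid, changed by 3.19 ± 0.62 (adjusted p = 0.0329). Cpt1a, which admits fatty acids to mitochondrial oxidation, and Pfkp, a phosphofructokinase of glycolysis, both outside the lists, changed by -3.52 ± 0.20 (adjusted p = 0.00265) and -3.55 ± 0.23 (adjusted p = 0.0027). The glutathione and antioxidant enzymes had a median change of -0.26 with all samples and 1, 1, 2 and 1 higher and 3, 3, 4 and 4 lower, and the phospholipid list had a median change of 0.051 with all samples and none higher and 3, 3, 4 and 4 lower as each sample was left out. In the 4 fits that each left out 1 sample, Gsta3, Sod2, Gpx8, Pla2g1b, Pla2g5, Pla2g10, Hsd11b2, Cpt1a and Pfkp kept their calls each time, and Gstp3, Nqo1 and Cyp26a1 kept theirs in some fits only.

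A few genes of cholesterol synthesis rose. Of 20 measured, 3 rose and none fell, with a median change of 0.38. Sc5d, a late enzyme, measured 9.02 and 8.83 at day 0 and 10.75 and 10.29 at day 7, a change of 1.59 ± 0.22 (adjusted p = 0.0131), Hsd17b7 changed by 1.32 ± 0.23 (adjusted p = 0.0257), and Hmgcs1, an early enzyme of the pathway, measured 9.87 and 9.77 at day 0 and 11.09 and 10.84 at day 7, a change of 1.14 ± 0.18 (adjusted p = 0.0207). Sc5d kept its call in some of the 4 fits that left out a sample, and Hsd17b7 and Hmgcs1 lost theirs in each, and the list had 0, 0, 0 and 1 higher. The promoter of Hmgcs1, known as a target of the sterol-regulated factors of the SREBP family, is shown because it holds a match to a sterol regulatory element, TCACNCCAC, in capitals. It covers chr13:119690101-119690400 on the plus strand of GRCm38.p6 (RefSeq), from 250 bases before to 50 bases after the start of the gene, in the orientation of the gene.
Hmgcs1: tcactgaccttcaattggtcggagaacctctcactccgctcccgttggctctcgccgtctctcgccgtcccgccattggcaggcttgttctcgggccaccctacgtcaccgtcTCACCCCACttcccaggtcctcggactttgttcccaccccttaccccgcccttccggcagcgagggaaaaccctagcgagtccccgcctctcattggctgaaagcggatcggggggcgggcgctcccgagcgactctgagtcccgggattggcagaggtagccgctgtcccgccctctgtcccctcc
On both strands this motif was found in 1.24% of all 32851 promoters of that length, and in 1 of the 16 genes of the list with a promoter in the table. A match is a description of these letters only.

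Glycosyltransferases that cap or branch sugar chains were called in both directions. Of 88 members, 11 were higher (12.5%, against 6.76% of all genes) and 7 lower (7.95%, near the background of 7.10%). The list, drawn up by symbol, also counts the hyaluronan enzyme Has2, whose change of 5.56 was its largest rise. The sialyltransferases St3gal6 (4.93 and 5.07 at day 0 and 8.73 and 8.60 at day 7, a change of 3.67 ± 0.18, adjusted p = 0.00265), St3gal1 (5.14 and 5.47 at day 0 and 8.58 and 8.45 at day 7, a change of 3.21 ± 0.22, adjusted p = 0.00271) and St3gal5 (2.42 ± 0.19, adjusted p = 0.00352), which add terminal sialic acid, rose, with St3gal2 and St6gal1. The samples at day 7 were close together for St3gal6, St3gal1 and St3gal5 and further apart for St3gal2 and St6gal1. Gcnt2, which branches poly-N-acetyllactosamine chains, measured 8.98 and 9.16 at day 0 and 7.21 and 7.76 at day 7, a change of -1.58 ± 0.24 (adjusted p = 0.0173). B3gnt3 and B3gnt7, which extend such chains, changed by -1.90 ± 0.30 (adjusted p = 0.0199) and -1.74 ± 0.24 (adjusted p = 0.014). These 5 sialyltransferases thus rose while the 3 named enzymes that extend or branch chains fell. The glycosyltransferases had 4, 4, 7 and 5 higher and 1, 0, 1 and 2 lower without each sample in turn. Leaving out each of the 4 samples in turn, St3gal6, St3gal1 and St3gal5 kept their calls each time, St6gal1, Gcnt2, B3gnt3 and B3gnt7 kept theirs in some fits only, and St3gal2 lost its call each time.

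**Figure D4:**
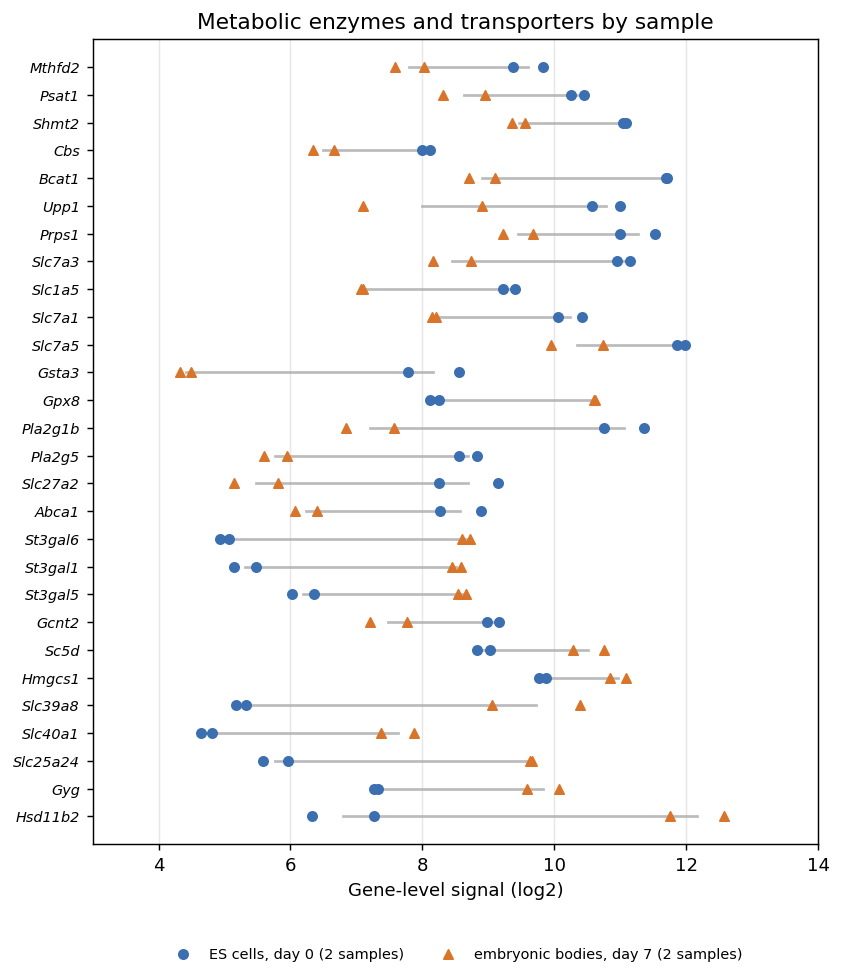
Gene-level log2 signal of metabolic enzymes and transporters in the 2 ES cell samples (blue circles) and the 2 embryonic body samples (orange triangles), with a grey line between the stage means; all genes shown were called. Enzymes of one-carbon and amino acid metabolism and their carriers have both embryonic body samples on the left, and sialyltransferases, Hsd11b2 and Slc39a8 on the right.

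Transcription factors had 82 of 811 members higher (10.1%) and 58 lower (7.15%). By sample left out, 27, 31, 54 and 57 rose and 24, 19, 25 and 20 fell. The TALE-type homeobox factors, cofactors of Hox proteins among them, together with sine oculis homeobox genes, had 6 of 24 higher and 1 lower. Meis2 measured 5.17 and 6.36 at day 0 and 10.38 and 10.78 at day 7, a change of 4.81 ± 0.43 (adjusted p = 0.00445), and Meis1 4.14 and 4.66 at day 0 and 6.70 and 7.04 at day 7, a change of 2.47 ± 0.25 (adjusted p = 0.00571). Pknox2, Pbx3, Six2 and Pbx2 rose by 1.17 to 1.85, and Tgif1 fell by 0.97. The Hox genes themselves gave no call among 32 measured, with a median change of 0.24. Their embryonic body samples differed, with replicate 1 higher by a median of 0.71 and 12 of 32 genes over 1 apart. Prrx1, a factor of mesenchyme, measured 4.89 and 4.65 at day 0 and 7.75 and 9.80 at day 7, a change of 4.01 ± 0.65 (adjusted p = 0.0206), and Isl1, of cardiac progenitors, 5.21 and 5.32 at day 0 and 7.84 and 8.79 at day 7, a change of 3.05 ± 0.36 (adjusted p = 0.0086). The TALE-type and sine oculis list had a median change of 0.89 with all samples and 3, 4, 8 and 4 higher and none lower, and the Hox genes had 0, 0, 0 and 6 higher with each sample left out. Over the 4 leave-out fits, Meis2 and Meis1 kept their calls each time, Pknox2, Pbx3, Six2, Prrx1 and Isl1 kept theirs in some fits only, and Pbx2 and Tgif1 lost theirs each time.

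GATA and FOG factors rose in 4 of 8 members and fell in 1. Gata6 measured 7.35 and 7.49 at day 0 and 11.13 and 9.99 at day 7, a change of 3.14 ± 0.43 (adjusted p = 0.0131), Gata4 6.99 and 6.83 at day 0 and 10.02 and 8.80 at day 7, a change of 2.50 ± 0.42 (adjusted p = 0.0224), and Gata3 changed by 2.39 ± 0.28 (adjusted p = 0.00833). Gata4 and Gata6, both factors of endoderm and heart, were higher in embryonic body replicate 1. So was the mean of the endoderm markers, which include Gata6, although Cxcr4 and Cer1 among them were higher in replicate 2. Of 19 SOX factors 5 rose and 2 fell: Sox11 (7.92 and 8.09 at day 0 and 10.41 and 10.92 at day 7, a change of 2.66 ± 0.23, adjusted p = 0.00422), Sox17, Sox6, Sox4 and Sox9 rose, and Sox2 (-1.84 ± 0.34, adjusted p = 0.0291) and Sox15 (-2.19 ± 0.24, adjusted p = 0.00737) fell. Among 21 ETS factors, Ets1 (5.30 and 5.34 at day 0 and 8.56 and 8.89 at day 7, a change of 3.41 ± 0.26, adjusted p = 0.00325), Fli1 (3.43 ± 0.39, adjusted p = 0.0083) and Erg (2.10 ± 0.46, adjusted p = 0.0451), factors of endothelium and blood, rose, and Etv4 (9.24 and 9.44 at day 0 and 6.29 and 6.87 at day 7, a change of -2.76 ± 0.24, adjusted p = 0.00427) and Etv5 (-1.84 ± 0.20, adjusted p = 0.0075), targets of fibroblast growth factor signals, fell with Elf3 and Spi1. Spry4, a feedback inhibitor in the same pathway, changed by -2.47 ± 0.23 (adjusted p = 0.00473), while the phosphatases Dusp4 and Dusp10 rose by 2.11 and 1.86. The GATA and FOG factors had a median change of 1.79 with all samples and 0, 1, 4 and 3 higher and none lower, and the SOX factors had a median change of -0.11 with all samples and 1, 1, 3 and 3 higher and 1, 1, 1 and 2 lower in the leave-out fits. The ETS factors had a median change of 0.31 with all samples and 2, 1, 3 and 2 higher and 2 lower each time without each sample in turn. With any 1 of the 4 samples left out, Sox11, Sox15, Ets1, Etv4, Etv5, Spry4 and Dusp10 kept their calls each time, and Gata6, Gata4, Gata3, Sox17, Sox6, Sox2, Fli1 and Erg kept theirs in some fits only. The calls of Sox4, Sox9, Elf3, Spi1 and Dusp4 were lost each time.

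The KLF and SP factors mostly fell where they were called, with 5 of 23 lower and 1 higher. Klf5 measured 12.02 and 12.16 at day 0 and 9.15 and 9.23 at day 7, a change of -2.90 ± 0.20 (adjusted p = 0.00271), Klf4 9.83 and 9.65 at day 0 and 7.30 and 6.93 at day 7, a change of -2.62 ± 0.26 (adjusted p = 0.00567), and Klf2 changed by -2.30 ± 0.18 (adjusted p = 0.00352). These 3 act together in ES cells, and all 3 had close replicates at both stages. Klf8 and Klf15 fell by 2.16 and 1.03, whereas Klf6 measured 8.07 and 8.11 at day 0 and 10.11 and 9.85 at day 7, a change of 1.89 ± 0.36 (adjusted p = 0.0311). Tfcp2l1, another factor of the ES cell network, measured 11.09 and 11.36 at day 0 and 9.02 and 7.67 at day 7, a change of -2.88 ± 0.46 (adjusted p = 0.0201). Gbx2 and Nkx6-2, homeobox factors, changed by -2.52 ± 0.25 (adjusted p = 0.00571) and -2.19 ± 0.18 (adjusted p = 0.00374). Mitf, a bHLH-zip factor known from melanocytes, measured 8.87 and 9.43 at day 0 and 6.12 and 6.45 at day 7, a change of -2.86 ± 0.25 (adjusted p = 0.00426), and its relatives Tfeb and Tfe3 fell by 1.86 and 0.98. The KLF and SP factors had a median change of -0.32 with all samples and 0, 0, 0 and 1 higher and 3 lower each time as each sample was left out. When each of the 4 samples was left out in turn, Klf5, Klf4, Klf2, Gbx2, Nkx6-2 and Mitf kept their calls each time, and Tfcp2l1 and Tfeb kept theirs in some fits only. The calls of Klf8, Klf15, Klf6 and Tfe3 were lost each time.

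Further factors that rose belong to several families. Jun, the core of AP-1, measured 6.42 and 6.34 at day 0 and 9.07 and 9.34 at day 7, a change of 2.83 ± 0.20 (adjusted p = 0.00294), in a list of 44 with 5 rises and no fall. Snai2 (3.27 ± 0.47, adjusted p = 0.015) and Zeb2 (6.20 and 6.25 at day 0 and 9.03 and 9.30 at day 7, a change of 2.94 ± 0.18, adjusted p = 0.00265), repressors active in epithelial to mesenchymal transition, rose, and Cdh1 and Epcam (-0.12 ± 0.23, adjusted p = 0.802) did not pass the test. Mef2c changed by 3.18 ± 0.41 (adjusted p = 0.0115) and Mef2a by 2.24 ± 0.22 (adjusted p = 0.00561). Hey2, an effector of Notch in vessels and heart, rose by 3.60. Of 15 Notch ligands, receptors and modifiers, Notch3 and Dlk1 rose and Mfng fell. Irf2 and Smad3 rose by 2.65 and 2.02, and Stat3, Stat4 and Stat6 fell, Stat4 from 7.55 and 7.71 to 4.19 and 4.80 (a change of -3.13 ± 0.44, adjusted p = 0.0143), against a rise of Stat5b (1.24 ± 0.21, adjusted p = 0.0236). In the NFI family Nfia measured 5.0 and 5.29 at day 0 and 8.59 and 8.22 at day 7, a change of 3.26 ± 0.25 (adjusted p = 0.00325), against falls of Nfib (-1.38 ± 0.30, adjusted p = 0.0433) and Nfic (-1.39 ± 0.27, adjusted p = 0.0327). Of 226 zinc finger genes named Zfp or the like, 19 rose (8.41%, against 6.76% of all genes) and 11 fell (4.87%, against 7.10%). They were led by Zfp608 (4.76 ± 0.27, adjusted p = 0.00265) and by Zfp42 (-4.07 ± 0.24, adjusted p = 0.00265), which is the ES cell marker Rex1. The AP-1 list had a median change of 0.11 with all samples and 3, 3, 3 and 4 higher, and the Notch list had a median change of -0.10 with all samples and 0, 0, 2 and 2 higher and none lower without each sample in turn. The STAT, IRF and SMAD factors had a median change of 0.015 with all samples and 2 higher each time and 0, 0, 1 and 0 lower, and the zinc finger genes had a median change of 0.056 with all samples and 5, 6, 6 and 5 higher and 5, 3, 3 and 3 lower in the leave-out fits. In the 4 fits that each left out 1 sample, Jun, Zeb2, Mef2a, Irf2, Smad3, Nfia, Zfp608 and Zfp42 kept their calls each time, and Snai2, Mef2c, Hey2, Dlk1 and Nfib kept theirs in some fits only. The calls of Notch3, Mfng, Stat3, Stat4, Stat6, Stat5b and Nfic were lost each time.

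**Figure D5:**
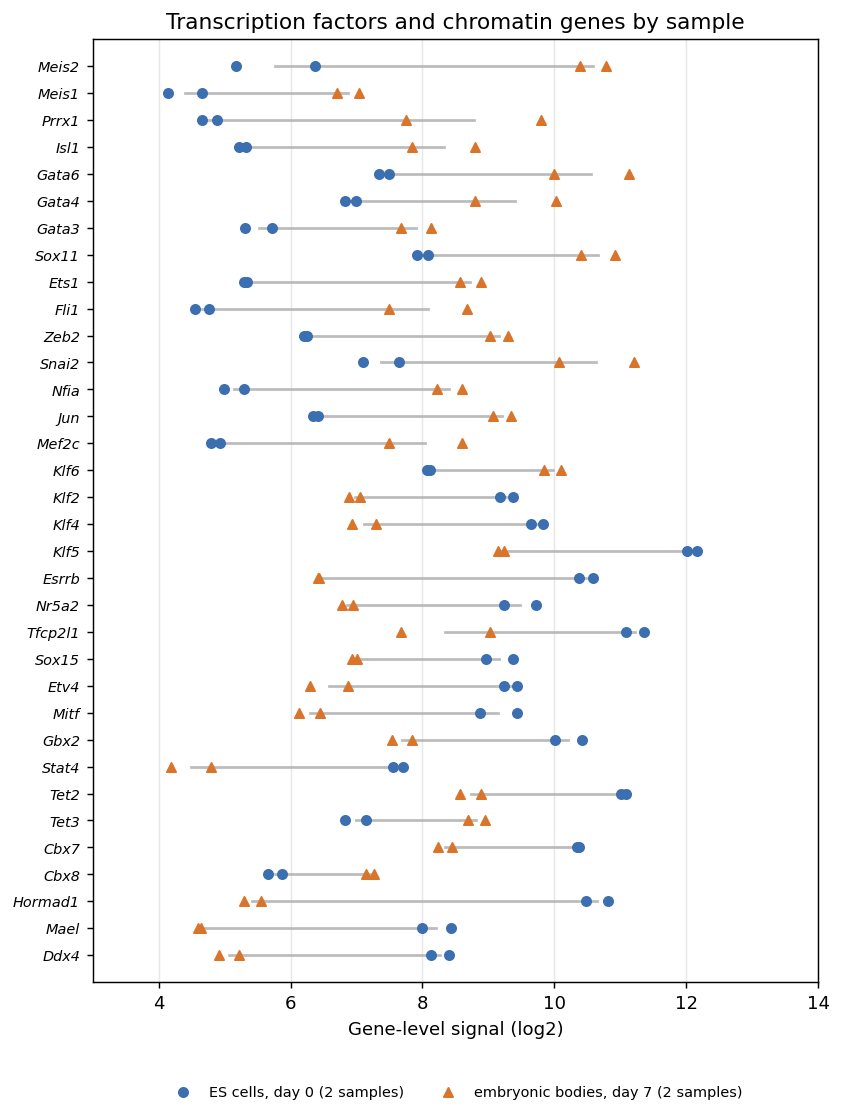
Gene-level log2 signal of transcription factors, chromatin and germline genes in the 2 ES cell samples (blue circles) and the 2 embryonic body samples (orange triangles), with a grey line between the stage means; all genes shown were called. Klf6 and Tet3 lie on opposite sides of their relatives Klf2, Klf4, Klf5 and Tet2, and Hormad1, Mael and Ddx4 have both embryonic body samples under 5.6.

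Signalling and proteolysis genes had 66 of 561 members higher (11.8%) and 39 lower (6.95%), and 19, 20, 42 and 39 higher and 12, 11, 13 and 11 lower without each sample in turn. In the Ras family Rasgrp3 (5.0 and 4.85 at day 0 and 9.46 and 9.44 at day 7, a change of 4.53 ± 0.17, adjusted p = 0.00265) rose and its relative Rasgrp2 (-2.41 ± 0.29, adjusted p = 0.00981), Mras (-3.87 ± 0.29, adjusted p = 0.00313) and Eras, the ES cell Ras (-2.16 ± 0.29, adjusted p = 0.0122), fell. Of 66 metalloproteases of the ADAM, ADAMTS and MMP groups and their inhibitors, 10 rose and 4 fell. The inhibitors Timp2 (5.30 and 4.95 at day 0 and 8.02 and 8.20 at day 7, a change of 2.99 ± 0.21, adjusted p = 0.00294) and Timp3 (2.58 ± 0.46, adjusted p = 0.0273) rose with the gelatinase Mmp2 (2.96 ± 0.34, adjusted p = 0.0083), and Timp1 (9.18 and 9.45 at day 0 and 6.76 and 6.78 at day 7, a change of -2.54 ± 0.18, adjusted p = 0.00297) fell. The regulatory subunits of protein kinase A moved in opposite directions, with Prkar2b at a change of 3.02 ± 0.32 (adjusted p = 0.00699) and Prkar2a at -1.37 ± 0.26 (adjusted p = 0.032), and likewise the G protein subunits Gng12 (2.65 ± 0.24, adjusted p = 0.00457) and Gng3 (-3.61 ± 0.22, adjusted p = 0.00265). Socs3, the feedback inhibitor of LIF signalling, changed by -2.86 ± 0.21 (adjusted p = 0.00298) and by -1.33 in another cluster. The metalloproteases and inhibitors had a median change of -0.028 with all samples and 4, 2, 9 and 5 higher and 2, 3, 2 and 2 lower with each sample left out. Leaving out each of the 4 samples in turn, Rasgrp3, Mras, Timp2, Timp1, Prkar2b, Gng12, Gng3 and Socs3 kept their calls each time, and Rasgrp2, Eras, Timp3 and Mmp2 kept theirs in some fits only. Prkar2a lost its call each time.

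Among 192 genes of the cytoskeleton, 22 rose and 16 fell, and 8, 8, 16 and 14 rose and 6, 5, 7 and 5 fell without each sample in turn. Krt18 and Krt19, keratins of simple epithelia, measured 5.73 and 5.49 at day 0 and 10.38 and 10.14 at day 7 (a change of 4.65 ± 0.23, adjusted p = 0.00265) and 6.30 and 5.69 at day 0 and 9.73 and 8.77 at day 7 (a change of 3.26 ± 0.37, adjusted p = 0.0083). Krt17 and the neurofilament-type Ina and Nefh fell, with changes of -3.15 to -2.37. Septin1 measured 10.63 and 10.93 at day 0 and 6.35 and 6.49 at day 7, a change of -4.36 ± 0.19 (adjusted p = 0.00265), while Septin8 rose by 1.45. Of 74 septins, myosins and actin regulators, 13 rose and 7 fell. The rises included Tpm1 (2.72 ± 0.20, adjusted p = 0.00313), Cald1 (3.11 ± 0.35, adjusted p = 0.00801), Tagln (2.60 ± 0.47, adjusted p = 0.028), Pls3 (2.82 ± 0.25, adjusted p = 0.00426) and Lcp1 (3.40 ± 0.40, adjusted p = 0.00844), all actin-bound proteins, while the smooth muscle markers Cnn1 and Myh11 did not pass the test (changes of 0.72 and -0.12, adjusted p = 0.497 and 0.749). Acta2, the smooth muscle actin, lies outside the lists and had the largest rise of all 14847 genes, from 5.89 and 5.46 to 12.91 and 12.02 (a change of 6.79 ± 0.34, adjusted p = 0.00265). Myo1g, Coro1a and Capg fell, with changes of -2.54 to -1.10. The septins, myosins and actin regulators had a median change of 0.12 with all samples and 4, 5, 9 and 7 higher and 2 lower each time in the leave-out fits. Over the 4 leave-out fits, Krt18, Krt19, Krt17, Ina, Septin1, Tpm1, Pls3, Acta2 and Myo1g kept their calls each time, and Nefh, Septin8, Cald1, Tagln and Lcp1 kept theirs in some fits only. The calls of Coro1a and Capg were lost each time.

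Germline and chromatin genes fell more often than they rose, with 41 of 234 lower (17.5%) and 18 higher (7.69%). In the leave-out fits, 4, 5, 6 and 4 rose and 17 fell each time. Meiosis, piRNA and Tudor genes had 23 of 70 lower and 1, Tdrd7, higher. Hormad1, which marks unpaired meiotic chromosomes, measured 10.81 and 10.48 at day 0 and 5.55 and 5.29 at day 7, a change of -5.23 ± 0.20 (adjusted p = 0.00265). Morc1, Dppa2 and Mael, the last a piRNA factor, measured 9.32 and 9.60 at day 0 and 4.81 and 5.48 at day 7, 8.46 and 9.46 at day 0 and 4.76 and 5.53 at day 7 and 7.99 and 8.44 at day 0 and 4.63 and 4.59 at day 7, with changes of -4.31 ± 0.27 (adjusted p = 0.00265), -3.81 ± 0.66 (adjusted p = 0.0242) and -3.60 ± 0.39 (adjusted p = 0.00716). Dppa2 is known from pluripotent cells as well as from germ cells. Ddx4, the germ cell helicase, measured 8.12 and 8.40 at day 0 and 5.22 and 4.91 at day 7, a change of -3.19 ± 0.56 (adjusted p = 0.0257), and Dazl, Tdrd12, Mei4, Mov10l1, Dmc1, Mlh3 and Piwil2 had changes of -3.01 to -1.86. The fall of Hormad1 was smaller in the mean of its exon-level probe sets, at -2.47. The meiosis, piRNA and Tudor genes had a median change of -0.43 with all samples and 0, 0, 1 and 0 higher and 8, 9, 9 and 9 lower as each sample was left out. With any 1 of the 4 samples left out, Hormad1, Morc1, Mael, Dazl, Tdrd12, Mei4 and Mlh3 kept their calls each time, and Tdrd7 kept its call in some fits only. The calls of Dppa2, Ddx4, Mov10l1, Dmc1 and Piwil2 were lost each time.

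Promoters of 3 of these genes are shown because each holds the E-box CACGTG, in capitals, a sequence that dimers of the factor MAX are known to bind. They are from RefSeq on GRCm38.p6 and run from 250 bases before to 50 bases after the start of the gene, in the orientation of the gene. Hormad1 lies at chr3:95559427-95559726 on the plus strand, Mael at chr1:166238695-166238994 on the minus strand and Ddx4 at chr13:112652261-112652560 on the minus strand.
Hormad1: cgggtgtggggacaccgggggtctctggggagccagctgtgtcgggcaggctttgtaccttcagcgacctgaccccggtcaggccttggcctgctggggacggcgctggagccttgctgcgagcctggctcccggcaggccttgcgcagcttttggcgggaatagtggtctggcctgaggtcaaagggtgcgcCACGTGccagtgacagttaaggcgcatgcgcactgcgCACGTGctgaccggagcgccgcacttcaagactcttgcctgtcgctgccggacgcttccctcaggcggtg
Mael: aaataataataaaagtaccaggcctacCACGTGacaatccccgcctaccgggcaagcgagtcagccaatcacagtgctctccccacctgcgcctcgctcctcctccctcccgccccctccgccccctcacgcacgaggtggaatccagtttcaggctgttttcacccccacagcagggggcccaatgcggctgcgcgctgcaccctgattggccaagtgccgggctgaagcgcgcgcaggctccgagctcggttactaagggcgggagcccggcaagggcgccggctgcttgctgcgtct
Ddx4: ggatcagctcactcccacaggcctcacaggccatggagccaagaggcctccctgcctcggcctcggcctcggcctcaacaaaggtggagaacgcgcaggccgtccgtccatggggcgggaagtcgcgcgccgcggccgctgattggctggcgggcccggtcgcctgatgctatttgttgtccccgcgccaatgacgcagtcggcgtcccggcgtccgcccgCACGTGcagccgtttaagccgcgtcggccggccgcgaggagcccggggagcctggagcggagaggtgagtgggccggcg
Hormad1 holds 2 matches and the others 1 each. The motif, which reads the same on both strands, was found in 7.15% of all 32851 promoters, in 8.62% of the promoters of the genes tested and in 23.1% of the 65 promoters of the meiosis, piRNA and Tudor list. The share was 27.3% in the 22 promoters of the cholesterol synthesis list, whose called genes rose. By gene, 13 of the list's 54 with a promoter held it, among them 6 of the 19 that were called (Ddx4, Hormad1, Mael, Mov10l1, Stag3 and Syce2). The list's promoters held a median of 17 CpG dinucleotides, against 7 over all promoters and 16 over those of the genes tested, and the motif holds a CpG itself. A match describes the letters and not the binding of a factor.

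DNA and histone modifiers split, with 10 of 94 higher and 11 lower. Dnmt3l, the cofactor of the de novo DNA methyltransferases, measured 10.64 and 11.02 at day 0 and 6.64 and 6.87 at day 7, a change of -4.07 ± 0.26 (adjusted p = 0.0027). Dnmt1, Dnmt3a and Dnmt3b did not pass the test, with changes of -0.29, -0.11 and -0.68 (adjusted p = 0.372, 0.774 and 0.173). The enzymes that oxidise methylcytosine moved in opposite directions: Tet2 measured 11.08 and 11.02 at day 0 and 8.57 and 8.89 at day 7, a change of -2.32 ± 0.22 (adjusted p = 0.00521), and Tet3 6.83 and 7.15 at day 0 and 8.95 and 8.69 at day 7, a change of 1.83 ± 0.20 (adjusted p = 0.00732). Subunits of the Polycomb complexes were called in both directions as well. Cbx7 (10.37 and 10.35 at day 0 and 8.23 and 8.44 at day 7, a change of -2.02 ± 0.17, adjusted p = 0.004) and Phc1 (-1.89 ± 0.18, adjusted p = 0.00506) fell with Eed and Jarid2, and Cbx8 (5.66 and 5.87 at day 0 and 7.27 and 7.15 at day 7, a change of 1.45 ± 0.19, adjusted p = 0.0113), Phc2 (1.06 ± 0.21, adjusted p = 0.0354) and Bmi1 (1.44 ± 0.29, adjusted p = 0.036) rose. Of 25 histone genes 5 fell and none rose, led by H2ac1 (11.79 and 11.06 at day 0 and 6.69 and 6.67 at day 7, a change of -4.75 ± 0.27, adjusted p = 0.00265) and H2bc1 (-2.90 ± 0.45, adjusted p = 0.0189), neighbouring variants known from testis. The DNA and histone modifiers had a median change of -0.22 with all samples and 3, 3, 3 and 4 higher and 6, 4, 4 and 5 lower, and the histone genes had a median change of -0.35 with all samples and 1, 3, 2 and 2 lower without each sample in turn. When each of the 4 samples was left out in turn, Dnmt3l, Tet2, Tet3, Cbx7, Phc1 and H2ac1 kept their calls each time, and Jarid2 and H2bc1 kept theirs in some fits only. The calls of Eed, Cbx8, Phc2 and Bmi1 were lost each time.

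Immune and stress genes were called near or under the background, with 6 of 201 higher (2.99%) and 13 lower (6.47%). B2m, the light chain of MHC class I, changed by 1.80 ± 0.21 (adjusted p = 0.00813) and Ifitm3 by -3.43 ± 0.29 (adjusted p = 0.00384). Heat shock proteins and chaperones had 1 of 65 higher (1.54%) and 5 lower (7.69%, near the background of 7.10%). The RNA-binding regulators of development, counted with the germline and chromatin class, had 7 of 45 higher, among them Igf2bp3 and Ptbp2 at 1.79 and 1.73, and 2 lower, the neuronal Elavl3 and Celf4 at -2.25 and -1.96. The heat shock proteins and chaperones had a median change of -0.059 with all samples and 0, 0, 1 and 0 higher and 1 lower each time, and the RNA-binding regulators had a median change of -0.021 with all samples and 1, 2, 2 and 0 higher and 2, 1, 2 and 1 lower with each sample left out. In the 4 fits that each left out 1 sample, Ifitm3 and Elavl3 kept their calls each time, and B2m, Igf2bp3, Ptbp2 and Celf4 kept theirs in some fits only.

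Outside all lists, the largest rises after Acta2 and Airn were Frzb (5.63 ± 0.28, adjusted p = 0.00265), a secreted Wnt inhibitor, Amot (5.05 ± 0.45, adjusted p = 0.00435), of Hippo signalling, and Wls (4.81 ± 0.24, adjusted p = 0.00265), the carrier that Wnt ligands need for secretion. Amot measured 5.09 and 5.70 at day 0 and 10.91 and 9.99 at day 7 and Wls 4.90 and 5.47 at day 0 and 9.96 and 10.05 at day 7. Frzb and Wls join Fzd2, Fzd4 and Lgr5 among the Wnt genes that rose, while 22 of the 23 Wnt ligands and R-spondins were not called. App, the amyloid precursor protein, measured 6.77 and 6.80 at day 0 and 10.84 and 10.58 at day 7, a change of 3.93 ± 0.21 (adjusted p = 0.00265). The largest falls were AU018091 (-4.36 ± 0.30, adjusted p = 0.00283), Lrrc2 (-4.35 ± 0.28, adjusted p = 0.0027), Laptm5 (11.33 and 11.94 at day 0 and 7.66 and 7.03 at day 7, a change of -4.29 ± 0.33, adjusted p = 0.00325) and Liph (-4.25 ± 0.30, adjusted p = 0.00294). Laptm5, known from blood cells, fell with Cd68 and Coro1a among the 9 macrophage markers, whereas the macrophage markers Csf1r, Adgre1 and Ptprc were not called (changes of -0.15, 0.16 and -0.14). Tcl1, a cofactor of Akt in ES cells, changed by -3.77 ± 0.24 (adjusted p = 0.0027), and Tgm1, Stmn2, Ttc39b, Emp1, Triml1, Apod, Tcea3 and Irak3 by -4.12 to -3.50. Leaving out each of the 4 samples in turn, Frzb, Amot, Wls, App, AU018091, Lrrc2, Laptm5, Liph, Tcl1, Tgm1, Stmn2, Ttc39b, Emp1, Triml1, Apod, Tcea3 and Irak3 kept their calls each time, and Cd68 and Coro1a lost theirs each time.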

How the data were processed

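RNA was extracted with TRIzol, depleted of ribosomal RNA and hybridised as biotin-labelled cDNA, per the labels' protocols. The deposited values are log2 signals. Per the submitters' processing notes the tools were Affymetrix Power Tools and RMA, a method of background correction, normalization and probe summary; their versions are not given in the labels. The core probe sets on mm9 gave 23332 gene-level transcript clusters, per the labels. Array signals have a floor and a ceiling, which can understate changes, and no detection calls were used. The number of arrays limits the precision.

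The 6 gene-level samples were fitted as deposited with lmFit and eBayes of limma 3.58.1 (R 4.3.3, 2-sided, day 7 minus day 0), which was also tested on simulated data. Symbols came from the platform annotation, updated through a GRCm38.p6 gene table: 14996 clusters had 1 symbol, 1019 several and 7317 none. The cluster with the highest mean over the 6 gene-level samples stood for a gene. Clusters with several symbols or none were tested but not named.

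The members and lists were chosen with earlier results of these data known. From each list, up to 4 called genes with the largest rise and 4 with the largest fall could be named, with 15 each way outside the lists, both partners of pairs with a call, and the markers. Other list members were named to complete families after their values were seen. Alternatives covered the samples in the fit, the replicate number as a block, scaling, filters, the variance prior, clusters per gene and exon-level means. The labels do not say whether replicate numbers pair the samples. A gene list of the signalling class was counted in the class totals and is not reported here.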

Additional observations from a re-analysis of the deposited data

How the results depend on the processing

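The counts depended most on the number of samples. Leaving out each gene-level sample in turn, cardiac bodies included, gave 317 to 900 clusters higher and 248 to 870 lower against 1249 and 1232, and among the listed genes 139 to 329 higher and 103 to 268 lower against 449 and 366, with fewer samples behind each fit. The other alternatives kept these counts within 1.5 times: only the 4 samples compared (900 higher, 870 lower), centring on sample medians (1168 and 1630), added quantile normalization (1283 and 1395), filters at the 25th and 50th percentile (1503 and 1515, 1644 and 1712), an intensity trend (1422 and 1477), and a required change of 1 (1092 and 972). Centring moved the share of calls that were higher from 50.3% to 41.7% and the median change over all clusters from -0.02 to -0.11. The mean of all clusters of a gene gave 445 and 363 listed genes.

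With the replicate number as a block, 1437 clusters were higher and 1403 lower, and 476 and 371 listed genes. Deviations of samples with the same number correlated at 0.083 between ES cells and embryonic bodies and 0.091 between embryonic and cardiac bodies. Between ES cells and cardiac bodies the correlation was higher, at 0.49. The main fit did not take the numbers as pairs, and whether samples with the same number belong together was not tested. Of 737 named genes, the block left 702 on the same side of the threshold, 33 lost their call and 2 gained one.

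Of 735 named genes with an exon-level mean, 722 stayed on the same side of the threshold, whatever their direction where neither level gave a call. Gpr146 reversed, with an exon-level change of -0.0067 (adjusted p = 0.986) against 0.998 in its gene-level cluster and -0.21 in another, and the cause was not tested. Over all genes, 2039 of 2040 called genes with an exon-level mean kept their direction. The exon-level profiles bear the same stage and replicate titles as the gene-level ones, so this agreement may not be independent.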

Other observations

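The called genes were spread unevenly over the chromosomes, by the GRCm38.p6 gene table. The share of genes that rose was lowest on chromosome 7, with 44 of 1220 (3.61%), and highest on the X chromosome, with 50 of 475 (10.5%). The share that fell was lowest on chromosome 1, with 36 of 849 (4.24%), and highest on chromosome 4, with 85 of 867 (9.80%). Chromosome 7 had 102 genes lower (8.36%) and a median change of -0.10. Neighbouring genes are not independent, and no test was made.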
